A study of Mus musculus with 12 samples.

Results

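The genes described here are 10 genes of the mitotic machinery: the cyclins Ccnb1, Ccnb2 and Ccna2, the kinases Cdk1, Plk1, Aurka and Aurkb, the checkpoint gene Bub1, and the chromosome genes Mki67 and Top2a. They were taken by gene ID from a table of 56748 genes, by a rule that uses no measured value but was written with earlier results of these data known, and all 10 were among the 14338 genes that passed a filter on low counts. RNA was sequenced from adipose tissue derived mesenchymal stem cells of the mouse, a stromal cell type isolated from fat. The groups were 3D spheroids at 24 h, attached 2D cells at 24 h, 3D spheroids at 0 h and attached 2D cells at 0 h, with 3 libraries each. All groups shared the same medium (DMEM with fetal bovine serum and antibiotics), and the labels name no strain, age or genetic change. They also do not say how long spheroids had formed before 0 h, or whether replicates came from separate cultures or animals, so the p-values reflect library-to-library spread alone, and that spread may be technical. The labelled cell type was not checked against marker genes, because the tables used here pair none of the gene IDs with symbols (0 of 56748 matched).

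Entry into mitosis depends on Cdk1, a kinase that is active only when bound to a cyclin. Cyclin A2 acts in DNA replication and G2, and the B cyclins act at the entry into mitosis and are destroyed at its end, while Polo-like and Aurora kinases build the spindle and drive chromosome segregation. Transcripts of many such genes accumulate in G2 and M. They are repressed in resting cells by the DREAM complex and activated in cycling cells by B-MYB and FOXM1 at a promoter element called the cell cycle genes homology region (CHR), often beside CCAAT boxes bound by NF-Y. These genes are therefore widely read as markers of proliferating cells, in stromal cell cultures as elsewhere.

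The promoters are shown first. Whether their motifs go with the changes in expression described below was not tested. RefSeq promoter windows (GRCm38.p6, from 250 bases before to 50 bases after the transcription start) were found for 8 of the 10 members: Cdk1, Ccnb1, Ccnb2, Plk1, Aurka, Bub1, Mki67 and Top2a. The counts themselves were made on another build, GRCm39. In the stretches below, printed 5′ to 3′ on the gene's strand, capitals mark TTTGAA and its variants TTCGAA and TTTAAA, which are forms of the CHR, and CCAAT, each searched on both strands. A CCAAT on the other strand therefore reads ATTGG. Stretches run from 110 bases before to 50 bases after the start, except for Mki67, whose matches lie further upstream (from 200 to 80 bases before the start).
Cdk1, chr10:69352863-69353022, minus strand: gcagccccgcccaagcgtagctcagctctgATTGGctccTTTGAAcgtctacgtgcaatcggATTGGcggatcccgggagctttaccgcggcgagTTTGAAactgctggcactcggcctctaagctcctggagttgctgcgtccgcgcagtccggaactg
Ccnb1, chr13:100786437-100786596, minus strand: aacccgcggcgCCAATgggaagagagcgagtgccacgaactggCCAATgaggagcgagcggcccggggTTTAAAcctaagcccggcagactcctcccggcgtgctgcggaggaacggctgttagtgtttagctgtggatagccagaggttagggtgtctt
Ccnb2, chr9:70421505-70421664, minus strand: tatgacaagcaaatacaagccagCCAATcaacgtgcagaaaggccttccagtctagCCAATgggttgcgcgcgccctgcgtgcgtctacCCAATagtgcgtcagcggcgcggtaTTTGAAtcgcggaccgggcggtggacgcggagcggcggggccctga
Plk1, chr7:122159325-122159484, plus strand: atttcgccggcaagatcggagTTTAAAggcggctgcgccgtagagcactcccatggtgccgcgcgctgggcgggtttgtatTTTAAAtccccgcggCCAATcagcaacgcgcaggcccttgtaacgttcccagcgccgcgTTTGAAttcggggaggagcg
Aurka, chr2:172370521-172370680, minus strand: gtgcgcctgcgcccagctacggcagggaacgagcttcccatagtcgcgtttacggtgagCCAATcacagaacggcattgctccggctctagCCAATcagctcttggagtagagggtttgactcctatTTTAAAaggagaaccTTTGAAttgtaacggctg
Bub1, chr2:127831810-127831969, minus strand: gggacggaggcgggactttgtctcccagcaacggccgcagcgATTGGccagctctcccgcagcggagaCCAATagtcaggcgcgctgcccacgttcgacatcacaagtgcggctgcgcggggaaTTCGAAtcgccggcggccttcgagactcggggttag
Mki67, chr7:135716459-135716579, minus strand: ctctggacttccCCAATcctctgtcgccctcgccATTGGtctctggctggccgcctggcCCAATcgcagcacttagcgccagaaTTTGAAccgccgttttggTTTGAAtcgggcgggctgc

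All 8 windows held at least 1 of the 3 CHR forms together with at least 1 CCAAT, a combination found in 11.3% of the 32851 RefSeq windows of the same length. TTTGAA was present in 6 of the 8 windows and in 17.9% of all windows. TTCGAA occurred in the Bub1 and Top2a windows, against 1.56% of all windows, and TTTAAA occurred in those of Ccnb1, Plk1 and Aurka, against 13.2%. At least 2 CCAAT matches were present in 7 of the 8 windows and in 11.7% of all windows, with 6 in Top2a and 1 in Plk1. In Cdk1, Ccnb1, Ccnb2 and Aurka, CCAAT matches of the same orientation began 32 or 33 bases apart. Such a spacing, singled out after the positions had been seen, occurred in 0.487% of all windows. In Ccnb2, Plk1, Aurka and Bub1, a CHR form lay just after the annotated start, whereas in Cdk1, Ccnb1, Mki67 and Top2a every match lay before it. These matches describe the letters of the windows and show no binding.

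**Figure D1:**
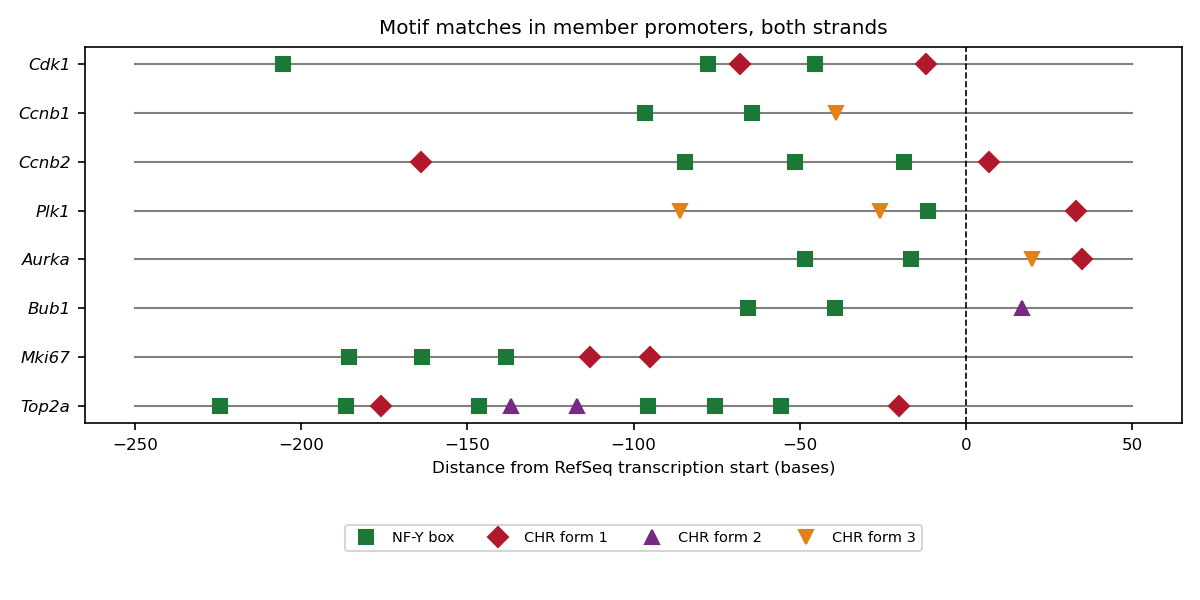
Positions of motif matches in the promoter windows of 8 mitotic genes, in bases from the RefSeq transcription start (dashed line), one gene per row. Squares are CCAAT matches (NF-Y box), and diamonds, upward triangles and downward triangles are the CHR forms TTTGAA and TTCGAA and TTTAAA. Every row carries at least 1 square and at least 1 CHR form.

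Library totals ran from 10182590 to 17109609 expected counts, and the members together took 2353 to 14789 counts in a library. Levels are given as CPM (counts relative to library size, with TMM scaling for library composition) where a gene is compared between groups. Levels of different genes are compared as TPM (transcript abundance, which allows for gene length). At 24 h the members' summed level was 187 ± 8.44 TPM in spheroids, against 931 ± 31.5 TPM in attached cells. At 0 h it was 813 ± 17.4 TPM in spheroids, against 712 ± 15.96 TPM in attached cells (SD, n = 3). In bulk RNA, fewer cells that express these genes and less of their RNA per cell cannot be told apart.

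The comparison of spheroids with attached cells at 24 h asked whether the form of culture went with a difference in mitotic gene expression after a day. All 10 genes fell in 3D, by 4.10-fold for Cdk1 to 8.19-fold for Plk1, and in each of them all 3D libraries lay below all 2D libraries. Over all genes tested, 22.8% were called lower in this comparison (edgeR quasi-likelihood test, Benjamini-Hochberg adjusted p under 0.05) and 27.2% had 3D libraries below all 2D libraries. That is 3276 genes lower, beside 2815 higher, and scaling by library totals turned the split to 2708 lower and 3648 higher, with all 10 members still called lower. The median log2 fold change was -2.50 over the 10 members, with a range of -3.03 to -2.04, and 0.00 over all 14338 genes, of which 5% lay below -1.81.

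Among the cyclins and their kinase, Ccnb1 (ENSMUSG00000041431), cyclin B1, had 30.2, 33.6 and 34.3 CPM in the 3D libraries at 24 h, against 184, 166 and 182 CPM in the 2D libraries at 24 h. The groups were far apart compared with their spread, and the log2 fold change was -2.44 ± 0.10 (SE; edgeR adjusted p = 4.7e-12). Ccnb2 (ENSMUSG00000032218), cyclin B2, had 12.4, 11.8 and 11.96 CPM in 3D, against 83.01, 63.3 and 70.1 CPM in 2D, a log2 change of -2.58 ± 0.13 (SE; edgeR adjusted p = 4.7e-11). Its 3D libraries were nearly equal, and the 2D libraries were more spread. Ccna2 (ENSMUSG00000027715), cyclin A2, had 24.7, 25.1 and 24.8 CPM in 3D, against 148, 146 and 146 CPM in 2D. Cyclin A2 thus had the tightest replicates of the 3 cyclins at 24 h, and its log2 fold change was -2.56 ± 0.10 (SE; edgeR adjusted p = 2.1e-12). Cdk1 (ENSMUSG00000019942) had 33.2, 42.0 and 38.0 CPM in 3D, against 164, 154 and 145 CPM in 2D. The kinase fell less than any cyclin, with a log2 change of -2.04 ± 0.12 (SE; edgeR adjusted p = 2.7e-10).

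Plk1 (ENSMUSG00000030867), the Polo-like kinase of mitotic entry and spindle assembly, had 12.7, 13.5 and 16.4 CPM in the 3D libraries at 24 h. In the 2D libraries at 24 h it had 101, 118 and 129 CPM. This was the lowest log2 fold change of the 10 members, at -3.03 ± 0.15 (SE; edgeR adjusted p = 5.6e-11), and 1.48% of all genes tested had a lower one. Aurka (ENSMUSG00000027496), the Aurora kinase of centrosomes and spindle poles, had 15.5, 15.9 and 14.5 CPM in 3D, against 104, 116 and 93.2 CPM in 2D. Its log2 fold change was -2.77 ± 0.13 (SE; edgeR adjusted p = 2.3e-11). Aurkb (ENSMUSG00000020897), the Aurora kinase of the chromosomal passenger complex, which corrects spindle attachments and acts in cytokinesis, had 10.1, 11.1 and 12.9 CPM in 3D, against 63.5, 50.9 and 47.0 CPM in 2D. Aurkb fell by 2.24 ± 0.16 on the log2 scale (SE; edgeR adjusted p = 4.8e-09).

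Bub1 (ENSMUSG00000027379), a kinase of the spindle assembly checkpoint that acts at kinetochores, had 4.25, 2.61 and 4.63 CPM in the 3D libraries at 24 h, against 28.3, 27.0 and 24.4 CPM in the 2D libraries. It was the member with the fewest counts, between 32 and 78 per library in 3D at 24 h, and its log2 fold change of -2.78 ± 0.24 had the widest error (SE; edgeR adjusted p = 6.6e-08). Mki67 (ENSMUSG00000031004), whose protein Ki-67 coats mitotic chromosomes and is the usual label of cycling cells, had 17.3, 10.8 and 12.4 CPM in 3D, against 56.7, 74.0 and 72.2 CPM in 2D. The replicates of Mki67 were loose in both cultures but did not overlap, and its log2 fold change was -2.31 ± 0.22 (SE; edgeR adjusted p = 1.6e-07). Top2a (ENSMUSG00000020914), the topoisomerase that untangles and condenses chromosomes, had 24.999, 25.4 and 20.6 CPM in 3D, against 120, 133 and 132 CPM in 2D. Top2a fell by 2.44 ± 0.14 on the log2 scale (SE; edgeR adjusted p = 2.5e-10).

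**Figure D2:**
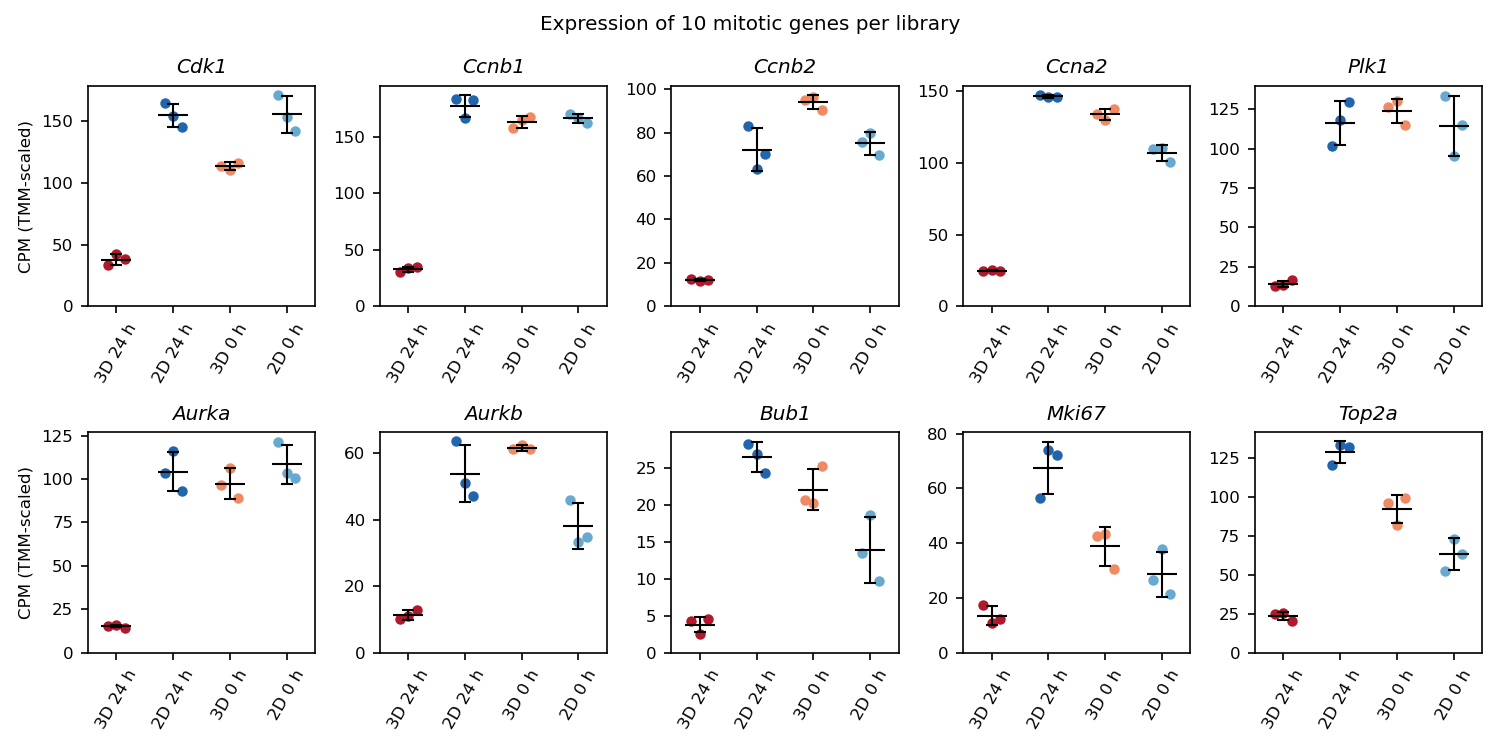
CPM after TMM scaling for each of the 10 mitotic genes, with a point per library and the mean ± SD of each group of 3 (bars), in 3D at 24 h, 2D at 24 h, 3D at 0 h and 2D at 0 h. In every panel the 3D libraries at 24 h lie below all other libraries, for example at 12.7 to 16.4 CPM for Plk1, against 95.1 CPM or more elsewhere.

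At 0 h the same comparison gave a mixed and smaller set of differences. Of the 10 members, 5 were higher in 3D (Aurkb, Bub1, Top2a, Ccnb2 and Ccna2), against 23.1% of all genes tested. Only Cdk1 was lower among them, against 22.7% of all genes, and Ccnb1, Plk1, Aurka and Mki67 did not pass the test. The members' median log2 fold change was 0.33, with a range of -0.45 to 0.70, and that of all genes was 0.02. Over all genes, 3255 were lower and 3309 higher, a split that became 2610 and 4025 with upper-quartile scaling and 2229 and 3641 with limma on log2(TPM + 1).

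Cdk1 had 114, 111 and 116 CPM in the 3D libraries at 0 h, against 171, 153 and 142 CPM in the 2D libraries at 0 h. Its groups did not overlap, and the log2 fold change was -0.45 ± 0.11 (SE; edgeR adjusted p = 0.0029), but with limma on log2(TPM + 1) it was -0.17 (adjusted p = 0.18) and the call ended. Aurkb had 61.1, 62.5 and 61.1 CPM in 3D, against 45.9, 33.2 and 34.8 CPM in 2D, and was the member most raised, at 0.70 ± 0.15 (log2, SE; edgeR adjusted p = 0.00094). Top2a had 95.7, 81.9 and 99.0 CPM in 3D, against 52.6, 73.1 and 63.5 CPM in 2D, a log2 change of 0.55 ± 0.13 (SE; edgeR adjusted p = 0.0024). These 3 genes thus moved in different directions at 0 h, although all 3 were lower in 3D at 24 h.

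Ccna2 had 134, 130 and 138 CPM in the 3D libraries at 0 h, against 109, 111 and 101 CPM in the 2D libraries, a log2 change of 0.32 ± 0.09 (SE; edgeR adjusted p = 0.0081). Ccnb2 had 95.2, 96.4 and 90.4 CPM in 3D, against 75.8, 79.6 and 69.5 CPM in 2D, with a log2 change of 0.33 ± 0.11 (SE; edgeR adjusted p = 0.027). Both cyclins were higher in every 3D library than in any 2D library, as were 5 of the 10 members and 27.9% of all genes, while 1 member and 26.6% of all genes had all 3D libraries below. The Ccnb2 call ended without 2D 0 h replicate 1 (edgeR adjusted p = 0.051), 2D 0 h replicate 3 (0.055), 3D 0 h replicate 1 (0.058) or 3D 0 h replicate 2 (0.062). Bub1 had 20.8, 20.3 and 25.3 CPM in 3D, against 13.5, 18.7 and 9.73 CPM in 2D, a log2 change of 0.66 ± 0.22 (SE; edgeR adjusted p = 0.020). Its call rested on single libraries, and ended without 2D 0 h replicate 3 (0.49 on the log2 scale, edgeR adjusted p = 0.070) or 3D 0 h replicate 3 (0.56, edgeR adjusted p = 0.088).

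At 0 h cyclin B1 stood at 157, 165 and 167 CPM in spheroids, against 170, 166 and 162 CPM in attached cells, with overlapping groups and a log2 change of -0.03 ± 0.09 (SE; edgeR adjusted p = 0.84). Plk1 had 126, 130 and 115 CPM in 3D and 133, 95.1 and 115 CPM in 2D (edgeR adjusted p = 0.52). Aurka had 96.4, 106 and 89.2 CPM in 3D and 121, 104 and 101 CPM in 2D (edgeR adjusted p = 0.29). In these 3 genes, at least 1 library of each culture lay within the range of the other. Mki67 had 42.5, 43.4 and 30.6 CPM in 3D and 26.7, 37.7 and 21.6 CPM in 2D, with a log2 change of 0.44 ± 0.21 that did not pass the test (SE; edgeR adjusted p = 0.095). It passed without 2D 0 h replicate 2 (0.69, edgeR adjusted p = 0.013), without 3D 0 h replicate 3 (0.58, edgeR adjusted p = 0.047), with upper-quartile scaling (0.56, edgeR adjusted p = 0.037) and without the count filter (0.47, edgeR adjusted p = 0.012).

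**Figure D3:**
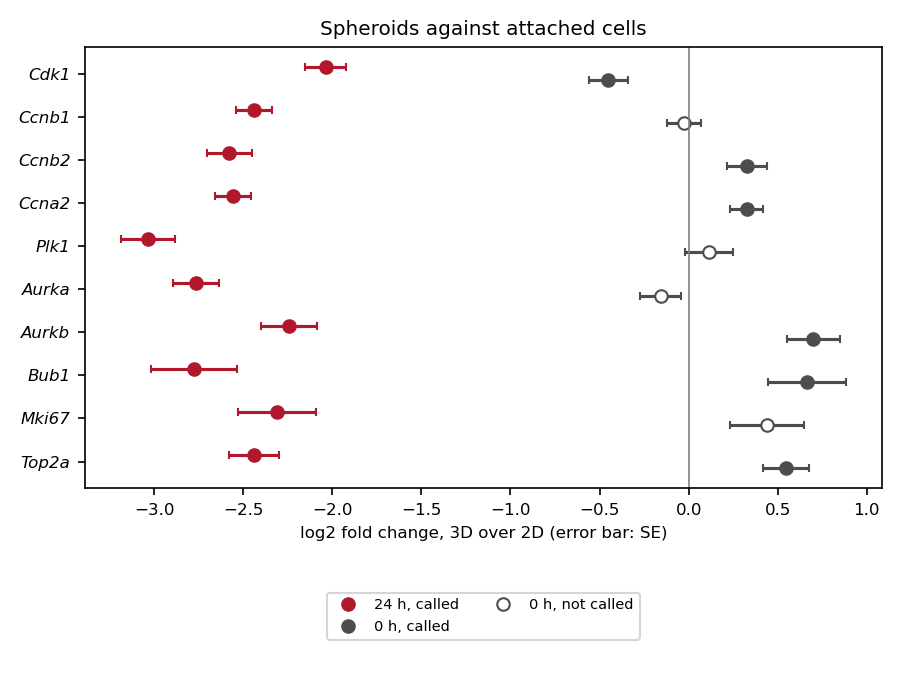
Log2 fold change of spheroids over attached cells for each of the 10 genes at 24 h (red) and at 0 h (grey), with the SE of the fit as error bar. Filled points passed the test at an adjusted p under 0.05 and open points did not. The 24 h points lie between -3.03 and -2.04, and the 0 h points between -0.45 and 0.70.

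The difference between the times of the 3D against 2D change was tested directly, in a model term of its own. It was negative and called for all 10 genes, against 20.5% of all genes tested. The members' median difference was -2.89 on the log2 scale, against -0.02 over all genes. Bub1 had the most negative difference, at -3.44 ± 0.33 (SE; edgeR adjusted p = 3.1e-07), with -2.78 at 24 h and 0.66 at 0 h. Cdk1 had the smallest, at -1.59 ± 0.16 (SE; edgeR adjusted p = 5.5e-07), with -2.04 at 24 h and -0.45 at 0 h.

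Over 24 h in spheroids, all 10 genes fell, against 24.7% of all genes tested, and in each of them all 24 h libraries lay below all 0 h libraries, against 30.5% of all genes. This comparison shares the 3D libraries at 24 h with the one between cultures at 24 h, and the 3D libraries at 0 h with the one at 0 h. Plk1 changed most among the members, with a log2 change of -3.12 ± 0.15 (SE; edgeR adjusted p = 4.4e-11), with group means of 14.2 ± 1.91 CPM at 24 h, against 124 ± 7.71 CPM at 0 h (SD, n = 3). Ccnb2 followed at -2.96 ± 0.13 (SE; edgeR adjusted p = 1.2e-11), with 12.1 ± 0.311 CPM at 24 h, against 94.0 ± 3.15 CPM at 0 h (SD, n = 3). The 3 cyclins, the Polo and Aurora kinases and Bub1 all fell by 2.32 or more on this scale. The least changed were Cdk1 at -1.59 ± 0.11 (SE; edgeR adjusted p = 7.1e-09) and Mki67 at -1.51 ± 0.22 (SE; edgeR adjusted p = 2.1e-05). Mki67 averaged 13.5 ± 3.38 CPM at 24 h, against 38.8 ± 7.17 CPM at 0 h (SD, n = 3). The members' median log2 fold change was -2.43, and that of all genes was 0.00.

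Over 24 h in attached cells, 5 of the 10 genes rose and none fell, against 17.4% of all genes called higher and 17% called lower. The genes that rose were Mki67, Top2a, Bub1, Aurkb and Ccna2. Mki67 had 56.7, 74.0 and 72.2 CPM in 2D at 24 h, against 26.7, 37.7 and 21.6 CPM in 2D at 0 h, a log2 change of 1.24 ± 0.21 (SE; edgeR adjusted p = 0.00029). Top2a was higher by 1.03 ± 0.13 (log2, SE; edgeR adjusted p = 2.3e-05), with 128 ± 7.01 CPM at 24 h and 63.1 ± 10.2 CPM at 0 h (SD, n = 3). The corresponding log2 fold changes were 0.93 ± 0.22 for Bub1, 0.50 ± 0.15 for Aurkb and 0.45 ± 0.09 for Ccna2 (SE; edgeR adjusted p = 0.0038, 0.015 and 0.0013). In these 5 genes the 24 h libraries all lay above the 0 h libraries, as they did in 21.7% of all genes. The Aurkb call ended without 2D 0 h replicate 2 (edgeR adjusted p = 0.051) or 2D 24 h replicate 1 (0.071).

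Cdk1, Ccnb1, Ccnb2, Plk1 and Aurka had log2 fold changes between -0.06 and 0.09 in attached cells and did not pass the test (edgeR adjusted p = 0.47 or higher). Cdk1 averaged 155 ± 9.47 CPM at 24 h, against 155 ± 15.02 CPM at 0 h (SD, n = 3). With limma on log2(TPM + 1), where the median of all genes was 0.17 and the split over all genes was 1257 lower and 2891 higher (2441 and 2489 with edgeR), Ccnb1 was higher by 0.36 (adjusted p = 0.0087) and Cdk1 by 0.27 (adjusted p = 0.049). With 0.1 added to TPM in place of 1, Ccnb1 was still called (limma adjusted p = 0.0097) and Cdk1 was not (limma adjusted p = 0.051).

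Gene length moved with this comparison. Across 14276 genes, the log2 fold change over 24 h in 2D had a Spearman's rho of 0.34 with relative effective length, that is, expected count divided by TPM with the median gene set to 1 (genes are not independent replicates). The lengths of Mki67, Top2a and Bub1, the members most raised, were 4.57, 1.53 and 1.503, the longest of the 10. Among the members not called, lengths ran from 0.419 for Cdk1 to 1.02 for Ccnb1. Ccna2 and Aurkb, which were also called higher, had lengths of 1.30 and 0.750, so that Aurkb lay within the range of the members not called. With a correction for the length trend in each library, an alternative added after the data had been seen, Mki67 moved to 0.74 (edgeR adjusted p = 0.0033), Top2a to 0.83 (edgeR adjusted p = 3.3e-05) and Bub1 to 0.74 (edgeR adjusted p = 0.012). All 5 genes were still called with it, and Cdk1 was called higher as well, at 0.25 (edgeR adjusted p = 0.029). For 3D against 2D at 24 h, rho across genes was -0.17, and all 10 members were called lower with the same correction.

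**Figure D4:**
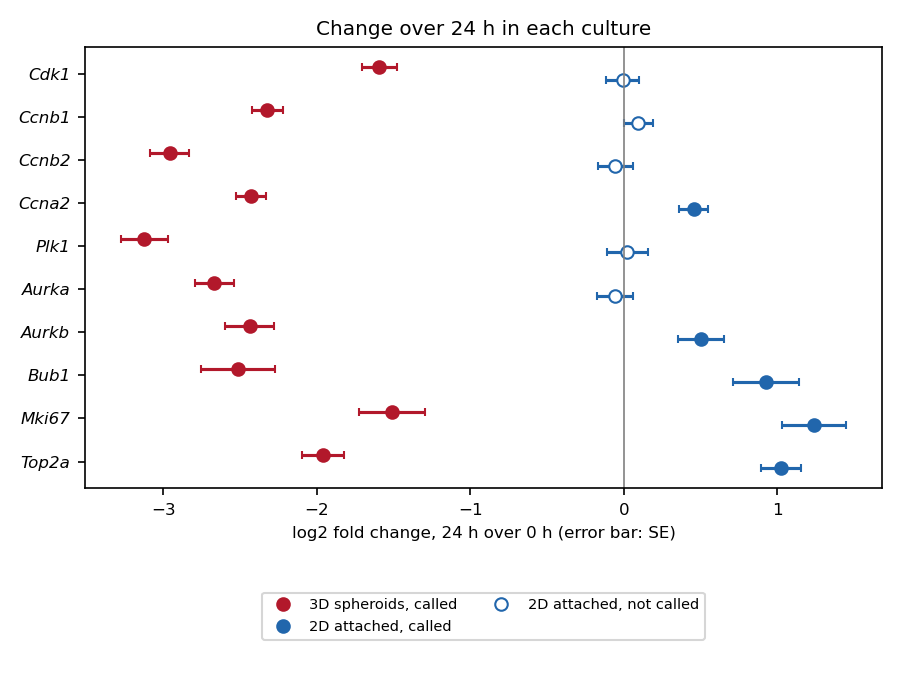
Log2 fold change of 24 h over 0 h for each of the 10 genes in 3D spheroids (red) and attached 2D cells (blue), with the SE of the fit as error bar, filled where called and open where not. Every red point is at -1.51 or lower, and blue points run from -0.06 to 1.24.

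**Figure D5:**
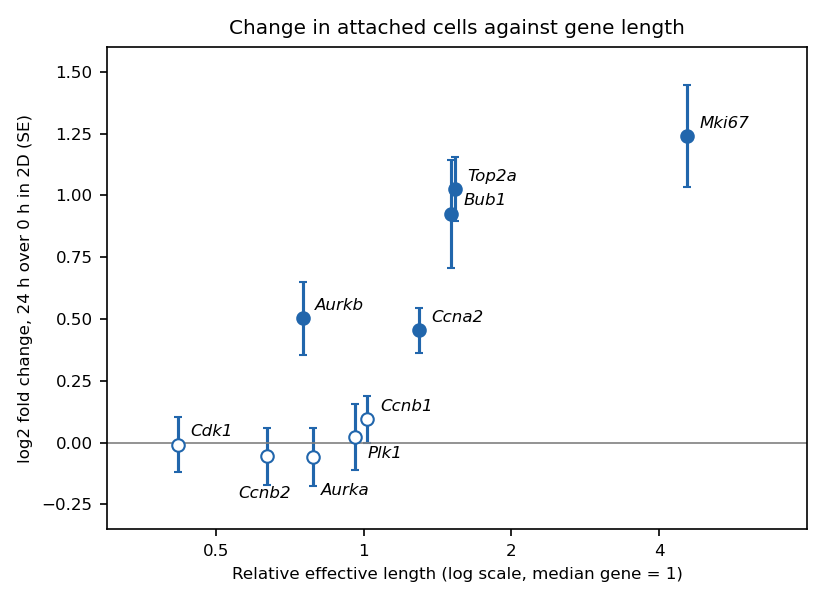
Log2 fold change of 24 h over 0 h in attached 2D cells (with SE, filled where called) against the relative effective length of each gene on a log scale, where the median of all genes is 1. Mki67 lies at a length of 4.57 and a change of 1.24, and Cdk1 at 0.419 and -0.01.

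Compared per length, Cdk1 was the most abundant member in each group, at 76.8 ± 6.28 TPM in spheroids and 277 ± 19.1 TPM in attached cells at 24 h, and at 205 ± 20.1 TPM in spheroids and 229 ± 9.43 TPM in attached cells at 0 h (SD, n = 3). Ccnb1 came next in each group, at 24.4 ± 0.937 TPM in spheroids and 137 ± 9.78 TPM in attached cells at 24 h (SD, n = 3), and its libraries did not overlap those of Cdk1 or of the gene after it. At the other end stood Bub1 and Mki67, at 2.21 ± 0.943 and 2.47 ± 0.485 TPM in spheroids, against 13.9 ± 1.23 and 10.9 ± 2.19 TPM in attached cells, all at 24 h (SD, n = 3). Between these ends, Aurka, Ccnb2, Ccna2, Top2a, Aurkb and Plk1 lay between 15.2 and 11.6 TPM on average in 3D at 24 h, and each overlapped its neighbour in that order. In 2D at 24 h, Aurka, Plk1, Ccna2 and Ccnb2 lay between 102 and 87.0 TPM, again with overlapping neighbours, above Top2a at 65.7 and Aurkb at 55.8 TPM.

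The members' shares of their summed TPM were also set side by side. The test used could not call any share difference under 0.05, since 3 libraries against 3 give p = 0.1 at best (exact permutation test). Cdk1 supplied 40.9% ± 1.57 of the members' summed TPM in spheroids and 29.7% ± 1.81 in attached cells at 24 h, and at 0 h it supplied 25.2% ± 1.95 in spheroids and 32.2% ± 0.612 in attached cells (SD, n = 3). The Cdk1 libraries of the cultures did not overlap at either time, with the 3D share above the 2D share at 24 h and below it at 0 h. Plk1 supplied 6.16% ± 0.518 in spheroids and 10.1% ± 1.62 in attached cells at 24 h (SD, n = 3). The Aurka share was 8.13% ± 0.790 in 3D and 10.98% ± 1.23 in 2D, and the Ccna2 share was 7.86% ± 0.551 in 3D and 9.42% ± 0.298 in 2D, both at 24 h (SD, n = 3). Each of these 4 differences at 24 h, and that of Cdk1 at 0 h, had p = 0.1 in a two-sided exact permutation test, the smallest that 3 libraries against 3 can give, and 0.18 after Benjamini-Hochberg adjustment over 20 tests. The shares of the other 6 members (Ccnb1, Ccnb2, Aurkb, Bub1, Mki67 and Top2a) overlapped between cultures at 24 h, with exact permutation p from 0.2 to 1.0. At 0 h more shares were apart: besides Cdk1, those of Ccnb2, Ccna2, Aurka, Aurkb, Bub1 and Top2a did not overlap (exact permutation p = 0.1 each). The Aurka share was lower in 3D at 0 h, and the other shares in that list were higher. Those of Ccnb1, Plk1 and Mki67 overlapped at 0 h, with exact permutation p from 0.2 to 0.8. Shares sum to 100%, so a gene that falls less takes share from the others.

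Over the 12 libraries, log2 CPM of the members correlated pair by pair at Pearson's r of 0.78 to 0.99 (45 pairs, a description, since the libraries form 4 groups and share their group differences). Mki67 was the least like the others, at 0.86 with the mean profile of the other 9, and Ccna2 the most, at 1.00 after rounding. Ccnb1 and Aurka formed the closest pair, at 0.99, and Ccnb2 with Mki67 the least close, at 0.78. Of the genes outside the group, those whose log2 CPM followed the members' mean profile most closely were sought among 10021 genes with at least 10 CPM in their highest group. The first 5 had r between 0.99 and 1.00 over the 12 libraries, and the files give no names for them. The first, ENSMUSG00000023015, had 27.5 ± 0.768 CPM in spheroids and 128 ± 2.45 CPM in attached cells at 24 h, and 119 ± 6.14 CPM in spheroids and 104 ± 1.93 CPM in attached cells at 0 h (SD, n = 3). The next, ENSMUSG00000026888, had 13.2 ± 0.517, 85.6 ± 10.4, 71.7 ± 5.81 and 60.9 ± 0.345 CPM in the same groups in that order (SD, n = 3). In that set, 388 genes had r over 0.9 with the profile.

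Other genes of the cell cycle were taken by ID from the mouse marker pairs supplied with the scran package, as lists of genes that lead the pairs of a phase. The G2/M list held Cdk1, Ccna2, Plk1, Aurka and Aurkb, which were left out of it. Of the remaining 87 genes tested, 66 were lower and 5 higher in 3D at 24 h, with a median log2 fold change of -1.50, against 22.8% lower and 19.6% higher among all genes. At 0 h, 24 were lower and 24 higher (27.6% each, near the 22.7% lower and 23.1% higher among all genes), with a median of 0.14. Over 24 h in spheroids 60 fell and 7 rose (median -1.34), against 24.7% lower and 23.8% higher among all genes. Over 24 h in attached cells 29 rose and 10 fell (median 0.18), against 17.4% higher and 17% lower among all genes. The S list, of genes that lead pairs of the DNA replication phase, had 33 lower and 10 higher of 80 in 3D at 24 h (median -0.23), and in the G1 list 43 of 116 were lower and 9 higher (median -0.19). In the same comparison the 10 mitotic members had their median at -2.50.

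Reads of some members could be shared out between loci. The expected counts were whole (within 1e-06) in all 12 libraries for Cdk1, Ccnb2, Plk1, Aurka, Aurkb, Bub1, Mki67 and Top2a. They were whole in 2 libraries for Ccnb1 and in 0 for Ccna2, so part of the reads of these cyclins was shared out with other loci and their levels are less certain. Which loci these were, and how many reads were shared, was not determined.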

How the data were processed

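RNA was measured in 12 libraries, 3 for each of 4 groups defined by culture and time. Per the submitters' processing notes, FastQC 0.11.9, STAR, RSEM and the build GRCm39 were used; other versions and the annotation are not stated there. The values deposited by the authors are expected counts, which need not be whole, and log2(TPM + 1) values. Columns naming day 0 and day 1 were read as 0 h and 24 h.

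Expected counts were rounded and fitted with edgeR 4.0.16 in R 4.3.3 (filter at a minimum count of 10, TMM, quasi-likelihood, 1 term per group, all 12 libraries). P-values were adjusted over 14338 genes and called under 0.05. SEs were taken from the log2 fold change and its F statistic. limma 3.58.1 and DESeq2 1.42.0 served as alternatives, marker pairs came from scran 1.30.0, and promoters came from RefSeq (GRCm38.p6).

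Members and lists were chosen with earlier results of these data known. All 10 members are named; of genes like them, the first by r are given. Lists of symbols, of mitotic genes and of cell types, could not be used, since no ID was paired with a name; the members' names were given with their IDs when the members were chosen.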

Additional observations from a re-analysis of the deposited data

Results flagged for a closer look

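For all 10 members, spheroids and attached cells differed by another amount at 24 h than at 0 h (edgeR, difference tested directly). Such a difference was common: over all 14338 genes tested, 2934 were called with a negative one and 2676 with a positive one. The log2 differences were -1.59 for Cdk1, -2.42 for Ccnb1, -2.90 for Ccnb2, -2.88 for Ccna2, -3.15 for Plk1, -2.61 for Aurka, -2.94 for Aurkb, -3.44 for Bub1, -2.75 for Mki67 and -2.99 for Top2a. No library was removed as outlying. Replicates were compared by chi-square per degree of freedom, which is larger the more 2 libraries differ and also the more counts they hold. Depth was not evened out: in 3D at 24 h, replicate 1 held 17109609 expected counts, against 11594380 and 12449744 in replicates 2 and 3. In 3D at 24 h, replicate 1 differed more from replicates 2 and 3 (29.0 and 22.7) than these did from each other (6.51). The same held in 2D at 24 h (23.1 and 15.8, against 6.30). At 0 h the pairs ran from 4.69 to 7.91 in 3D and from 19.8 to 37.9 in 2D. The effect of leaving out each library is given below.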

How the results depend on the processing

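In 3D against 2D at 24 h, over 24 h in 3D, and in the difference between the times, all 10 members kept their sign and their call under every alternative run: DESeq2, library totals, upper-quartile scaling, no count filter, limma on log2(TPM + 1) with a pseudocount of 1 or 0.1, only the groups compared (not for the difference), the replicate block, each library left out, and the length correction, which was added after seeing the data. The all-gene median of 3D over 2D was 0.12 at either time when libraries were scaled by their totals, and at 0 h 0.14 with upper-quartile scaling and 0.13 with limma. Leaving out 1 library gave 10 calls in each of these comparisons, 4 to 7 at 0 h (against 6) and 4 to 5 over 24 h in 2D (against 5). Over all genes, the main fit called 22.7% lower and 23.1% higher at 0 h. It called 17% lower and 17.4% higher over 24 h in 2D. The replicate block gave 10 members called at 24 h, 6 at 0 h, 10 over 24 h in 3D, 5 over 24 h in 2D and 10 for the difference, as without it. Over all 14338 genes, the block called 3082 lower and 2599 higher at 24 h, and 3023 and 3104 at 0 h. The split was 3317 and 3206 over 24 h in 3D, 2122 and 2210 over 24 h in 2D, and 2731 and 2403 for the difference. The replicate numbers did not pair the libraries (r of deviations from -0.20 to 0.04 over 18 same-numbered pairs, and 0 of 12 libraries correlated best with their own number).

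Signs turned only for values near 0, and the cause was not tested. At 0 h, the log2 fold change of Ccnb1 (-0.03) was 0.075 with library totals, 0.091 with upper-quartile scaling, 0.0050 without the count filter, and 0.20 with limma at either pseudocount. With 1 library left out it ran from -0.044 to 0.021, and that of Plk1 (0.11) from -0.0085 to 0.24. Over 24 h in 2D, Cdk1 (-0.01) was 0.049 with library totals, 0.043 with upper-quartile scaling, 0.27 with limma at either pseudocount, 0.013 with only the groups compared and 0.25 with the length correction. Ccnb2 (-0.06) was 0.16 with limma at either pseudocount and 0.070 with the length correction, Aurka (-0.06) was 0.15 with limma at either pseudocount, and Plk1 (0.02) was -0.015 with the length correction. With 1 library left out, Cdk1 ran from -0.052 to 0.055, Ccnb2 from -0.17 to 0.036, Plk1 from -0.095 to 0.13 and Aurka from -0.13 to 0.018. Bub1 in 3D at 24 h, with 32 to 78 counts per library, is the value most limited by depth.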
